A study of Mus musculus with 2 samples.

Results

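The miR-183 cluster holds the 3 miRNA genes Mir182, Mir183 and Mir96, which are transcribed together, and its RNA fragments of 15 to 17 nt were described in 2 libraries of mouse embryonic stem cells. They are 3 of the 2202 miRNA hairpins in the GENCODE annotation. Their reads were taken as the sequences that matched 1 of these hairpins exactly, over the whole length and on the sense strand. That gave 9 distinct sequences among 42410 of this length in the SB431542 library and 12 among 71589 in the DMSO library, 13 in all. None of the 13 was found in another annotated transcript or in more than 1 of the 3 hairpins, and no read matched the cluster in antisense.

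Cells of J1, a line of strain 129S4/SvJae derived from the inner cell mass, were grown on gelatin in medium with Knockout Serum Replacement and LIF (leukaemia inhibitory factor) at 1000 U/mL, in both groups. The treated group had 3 µM SB431542, an inhibitor of the type I receptor kinases for TGF-beta, activin and Nodal, for 24 h, and the control group an equal volume of its solvent DMSO for 24 h. With 1 library per group and 1 cell line, the spread between replicates is unknown and nothing was tested, and the 95% intervals below cover counting error only. The files analysed hold sequences of 3 to 17 nt, shorter than any mature miRNA of the cluster, so the values describe fragments and not the abundance of the full-length miRNAs. The reads of 15 to 17 nt numbered 517535 with SB431542 and 990296 with DMSO, of which 21921 (4.24%) and 78127 (7.89%) were given to miRNA hairpins. The mean GC content of all reads of 15 to 17 nt was 64.2% with SB431542 and 60.7% with DMSO. The hairpins Mir290a, Mir291a, Mir292, Mir293, Mir294 and Mir295 are typical of naive mouse embryonic stem cells. Together they supplied 479061 per 1000000 miRNA reads with SB431542 and 505568 with DMSO. Nearly all of these came from Mir293, with 10364 of 10501.5 reads with SB431542 and 38937 of 39498.5 with DMSO. The 5 hairpins of primed pluripotent cells (Mir302a to Mir302d and Mir367) had 0 reads in both libraries.

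A miRNA gene is transcribed into a long precursor, from which the nuclease Drosha cuts a hairpin. Dicer then removes the terminal loop, which leaves a duplex of the 5p and the 3p arm, and the arm that is loaded into an Argonaute protein recognises messenger RNAs mainly through its seed, bases 2 to 8. The miR-183 cluster is conserved across vertebrates and is best known from sensory cells such as photoreceptors and hair cells of the inner ear, where changes in the miR-96 seed cause deafness in mouse and human. In human glioma cells miR-182 is known to be induced by TGF-beta, the pathway that SB431542 blocks.

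In the GRCm38 genome the hairpins lie within 3820 bases of the minus strand of chromosome 6, at 30165918 to 30165992 for Mir182 (ENSMUSG00000076361.1), 30169446 to 30169551 for Mir96 (ENSMUSG00000065586.1) and 30169668 to 30169737 for Mir183 (ENSMUSG00000065619.2). In the direction of transcription Mir183 comes first, Mir96 follows after 116 bases and Mir182 after another 3453. No other annotated gene overlaps this stretch. The nearest are the long noncoding RNA gene Rncr4, 3156 bases away, and Nrf1, 12460 bases away, both on the plus strand.

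The mature 5p miRNAs are shown because nearly all reads on an arm came from them. The sequences are those of RefSeq (GRCm38.p6), with the seed in capitals.
miR-182-5p: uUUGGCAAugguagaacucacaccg
miR-96-5p: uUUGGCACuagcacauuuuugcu
miR-183-5p: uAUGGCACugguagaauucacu

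No seed was shared by these 3 miRNAs. Counted from 1 at the 5′ end, with the base of miR-182-5p given first, the seed of miR-96-5p differs from that of miR-182-5p by A8C, and the seed of miR-183-5p by U2A and A8C. Over the whole length, aligned at the 5′ end without gaps, miR-183-5p was identical to miR-182-5p at 18 of 22 positions and miR-96-5p at 12 of 23.

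The Mir182 hairpin carried most of the reads, and they came from its 5p arm and its loop. It is printed whole, as DNA, because its loop gave the finding described next. Capitals mark the loop, hairpin positions 32 to 49, which lies between the mature 5p miRNA (positions 7 to 31) and the mature 3p miRNA (positions 50 to 70).
Mir182 hairpin: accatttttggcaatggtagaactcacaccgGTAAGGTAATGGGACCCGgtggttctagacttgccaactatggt

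The fragments that carried nearly all Mir182 reads were 3 of the 5p arm, with the seed in capitals, and 3 of the loop.
5p, 15 nt: tTTGGCAAtggtaga
5p, 16 nt: tTTGGCAAtggtagaa
5p, 17 nt: tTTGGCAAtggtagaac
loop, 15 nt: gtaaggtaatgggac
loop, 16 nt: gtaaggtaatgggacc
loop, 17 nt: gtaaggtaatgggaccc

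**Figure D1:**
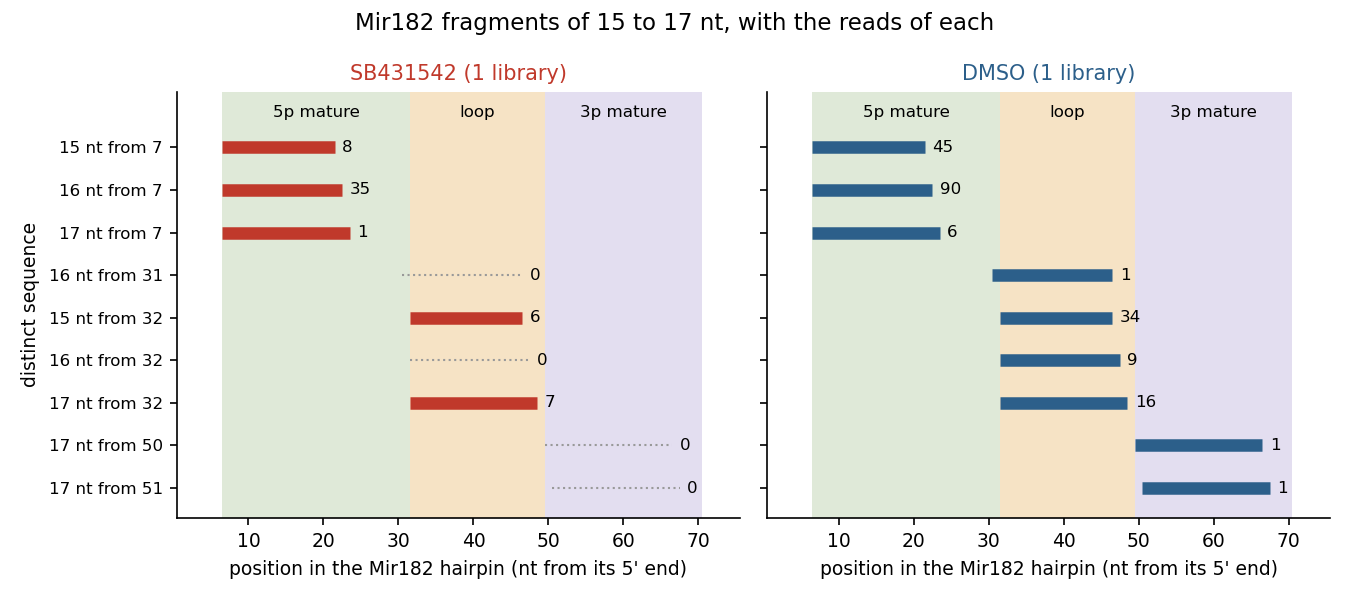
Each bar is a distinct Mir182 sequence of 15 to 17 nt, drawn from its start to its end along the hairpin (x axis, nt from the 5′ end), with its reads beside it, for SB431542 on the left and DMSO on the right. A dotted line is a sequence with 0 reads in that library. All 5p fragments begin at position 7 and nearly all loop fragments at position 32, and the 3p arm holds 2 reads, both with DMSO.

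Mir182 had 57 reads with SB431542 (95% exact Poisson interval 43.2 to 73.9) and 203 with DMSO (176 to 233). It made up 90.5% of the cluster's 63 reads with SB431542 and 98.1% of its 207 reads with DMSO. Per 100 nt of hairpin, these were 76.0 reads with SB431542 and 271 with DMSO.

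Mir183 and Mir96 were near the limit of detection. Mir183 had 4 reads with SB431542 and 4 with DMSO, or 5.71 per 100 nt of hairpin in each library. Mir96 had 2 reads with SB431542 and 0 with DMSO, or 1.89 and 0 per 100 nt. Both counts of Mir96 lie under 3 reads, the floor set here for a count of 0 (the upper exact Poisson limit is 3.69), so no ratio is given for it. In reads per 1000000 miRNA reads (RPM) that floor corresponds to 137 with SB431542 and 38.4 with DMSO. All 10 reads of Mir183 and Mir96 lay on the 5p arm and began at the mature 5′ end.

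The 5p arm of Mir182, the arm known as its main mature product, gave the larger part of the hairpin's reads in both libraries. It held 44 of 57 reads with SB431542 (77.2%, 95% Clopper-Pearson interval 64.2 to 87.3) and 141 of 203 with DMSO (69.5%, 62.6 to 75.7). The 3p arm held 0 of 57 reads with SB431542 (0%, 0 to 6.27) and 2 of 203 with DMSO (0.985%, 0.120 to 3.51). A floor of 3 reads for a count of 0 corresponds to 5.26% of the 57 reads. The intervals of the 5p share overlapped, and a difference in arm use was not tested.

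The loop of Mir182 held nearly all of the remaining reads. It had 13 of 57 reads with SB431542 (22.8%, 12.7 to 35.8) and 60 of 203 with DMSO (29.6%, 23.4 to 36.3). These shares do not depend on how the libraries are scaled, and their intervals overlapped. The loop fragments lie mostly beyond the middle of the hairpin, so a split at the middle counts them with the 3p arm, which then appears to have 13 reads with SB431542 and 62 with DMSO although the mature 3p miRNA has 0 and 2.

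The fragments of Mir182 had fixed 5′ ends and variable 3′ ends. With SB431542, 44 of 44 reads of the 5p arm began at the mature 5′ end (interval 92.0 to 100.0%), and with DMSO 141 of 141 did (97.4 to 100.0%). The 13 loop reads with SB431542 all began at position 32, the base after the mature 5p miRNA. Of the 60 loop reads with DMSO, 59 began there (98.3%, 91.1 to 99.96), and the other began 1 base earlier.

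The 3′ ends stopped within the annotated product in both regions. The 5p fragments ended 8 to 10 bases before the mature 3′ end of the 25-nt miR-182-5p, which no sequence of up to 17 nt from that start can reach. The loop fragments ended 1 to 3 bases short of the 18-nt loop, and the complete loop is itself 1 nt longer than the longest sequence analysed. Whether longer reads hold it is not analysed here.

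A length of 16 nt was the commonest among the 5p fragments in both libraries. It made up 35 of 44 reads with SB431542 (79.5%, 64.7 to 90.2) and 90 of 141 with DMSO (63.8%, 55.3 to 71.7). Over all miRNA reads the share of 16 nt was 41.3% with SB431542 and 41.5% with DMSO, below the interval of miR-182-5p in each library. Without the reads of Mir293, that background was 33.2% with SB431542 and 32.8% with DMSO. The fragments of 15 nt made up 8 of 44 reads with SB431542 (18.2%, 8.19 to 32.7) and 45 of 141 with DMSO (31.9%, 24.3 to 40.3). Those of 17 nt were the rarest, at 1 of 44 reads with SB431542 and 6 of 141 with DMSO. The intervals of the libraries overlapped at each length.

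The loop fragments had another distribution of lengths. With SB431542 there were 6 reads of 15 nt, 0 of 16 nt and 7 of 17 nt, and with DMSO 34, 10 and 16. The share of 17 nt was 53.8% with SB431542 (25.1 to 80.8) and 26.7% with DMSO (16.1 to 39.7), with overlapping intervals. Within each library this lay above the share of 17 nt among 5p fragments, 2.27% with SB431542 (0.0575 to 12.02) and 4.26% with DMSO (1.58 to 9.03), and the intervals of loop and 5p did not overlap. Taken over the 3 hairpins, 16, 38 and 9 reads were of 15, 16 and 17 nt with SB431542, and 80, 102 and 25 with DMSO.

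**Figure D2:**
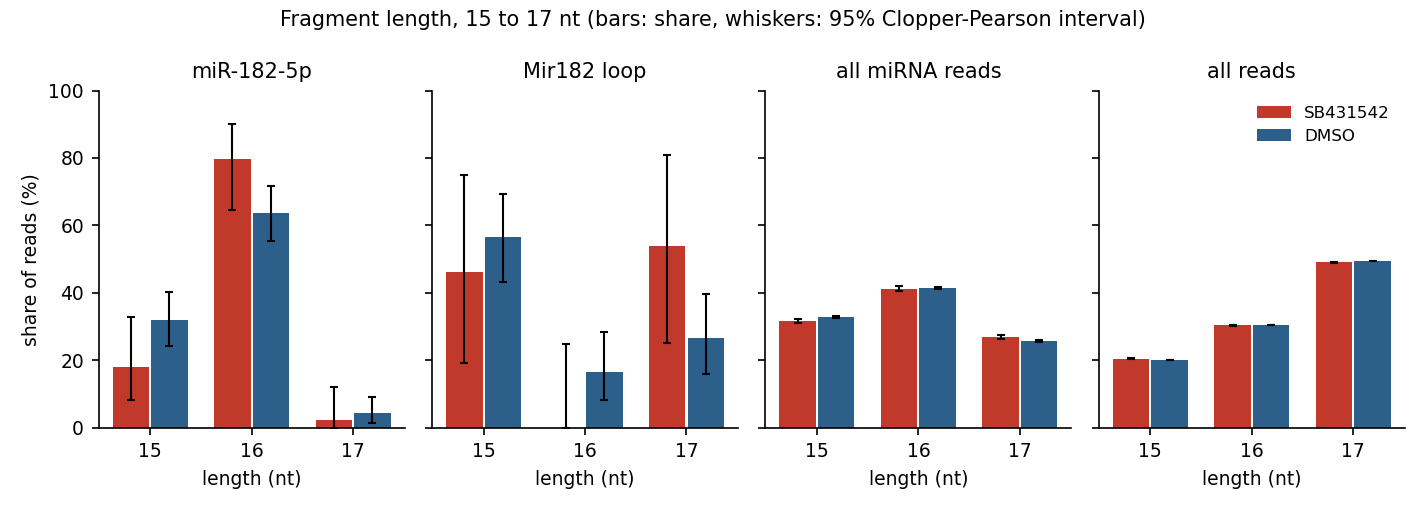
Bars give the share of reads (%) of 15, 16 and 17 nt, and whiskers the 95% Clopper-Pearson interval, for miR-182-5p, the Mir182 loop, all miRNA reads and all reads of these lengths, with SB431542 left of DMSO. Reads of 16 nt lead in miR-182-5p (79.5% and 63.8%), while the loop has few or none of them (0 of 13 and 10 of 60 reads).

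The comparison of the libraries depended on the scale. In RPM the cluster stood at 2874 with SB431542 and 2650 with DMSO, a log2 ratio of SB431542 to DMSO of 0.13 (exact conditional binomial interval -0.31 to 0.53). Mir182 stood at 2600 RPM with SB431542 and 2598 RPM with DMSO (log2 0.01, -0.45 to 0.43), nearly equal on this scale, and a difference was not tested. With TMM factors in place of the miRNA total the sign turned, within the interval, to -0.14 for the cluster and -0.26 for Mir182. As the cells were measured in bulk, less RNA per cell and fewer cells with the RNA could not be told apart in any of these ratios.

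Per 1000000 reads of 15 to 17 nt the same reads were lower in the SB431542 library. The cluster then stood at 122 with SB431542 and 209 with DMSO (log2 -0.77, -1.21 to -0.37), 1.71-fold lower. Mir182 stood at 110 and 205 (log2 -0.89, -1.35 to -0.47). All miRNA reads together had a log2 ratio of -0.90 per read of 15 to 17 nt, near the value of Mir182. By arithmetic, each log2 ratio on this scale is the ratio in RPM shifted by that -0.90, the difference in miRNA share. Why the miRNA share differed between the libraries, and whether their GC content plays a part, was not tested.

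Within Mir182 the 5p arm and the loop had ratios whose counting intervals overlapped. The 5p arm had 2007 RPM with SB431542 and 1805 RPM with DMSO (log2 0.16, -0.37 to 0.65). The loop had 593 RPM with SB431542 and 768 RPM with DMSO (log2 -0.33, -1.36 to 0.51). Scaled to the reads of 15 to 17 nt, the 5p arm had a log2 ratio of -0.73 (-1.27 to -0.25) and the loop one of -1.23 (-2.26 to -0.39). Mir183 had 182.5 RPM with SB431542 and 51.2 RPM with DMSO, and its log2 ratio of 1.83 rested on 4 reads in each library (-0.59 to 4.26). Scaled to the reads of 15 to 17 nt, the log2 ratio of Mir183 was 0.94 (-1.49 to 3.36).

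The 5p arm and the loop of Mir182 were the parts of the cluster with at least 50 reads over both libraries. In RPM 0 of these 2 were at least 2-fold apart, against 6.82% of 44 arms and loops of all hairpins that were at least 2-fold higher with SB431542 and 4.55% that were at least 2-fold lower. The median log2 ratio of the 44 was 0.09. Per 1000000 reads of 15 to 17 nt the loop was past 2-fold lower and the 5p arm was not, against 34.1% of the 44 that were lower and 0% that were higher, with a median of -0.81.

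**Figure D3:**
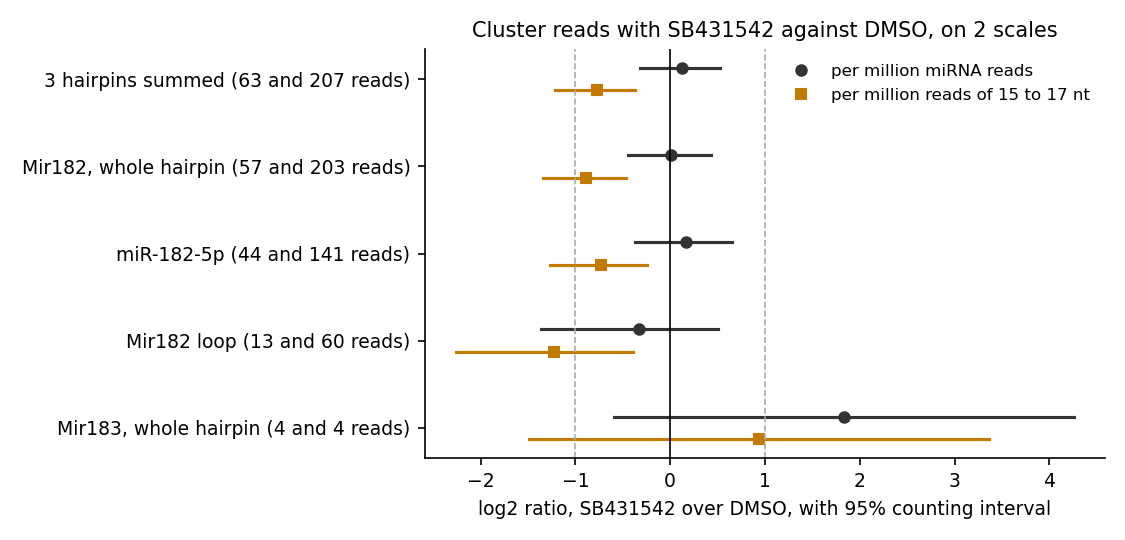
Points give the log2 ratio of SB431542 to DMSO and lines its 95% counting interval, per 1000000 miRNA reads (circles) and per 1000000 reads of 15 to 17 nt (squares), with reads of SB431542 and then DMSO in each label and dashed lines at 2-fold. Intervals include 0 for every item on the first scale, and lie below 0 for all but Mir183 on the second.

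Fixed 5′ ends were common among miRNA arms of these libraries. Over 34 other arms with at least 50 reads and a known mature miRNA, the median share of reads that began at the mature 5′ end was 97.7%, and 27 of the 34 lay above 90%. The 34 include arms that share their sequences, such as Mir27a 3p and Mir27b 3p, and these are not independent. The share of 100% for miR-182-5p was reached by 2 others, Mir152 3p and Mir92b 3p. The lowest was Mir431 3p with 1.43%.

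Loop fragments were rare among the other well-covered hairpins. Among 37 hairpins with at least 50 reads and both mature miRNAs known, 30 had no loop read, and Mir182 was the only one whose loop had 50 reads or more. It supplied 13 of the 52 loop reads of all hairpins with SB431542 and 60 of 132 with DMSO (45.5%). Over the other 36 hairpins, loops held 0.112% of the reads with SB431542 and 0.0592% with DMSO. These pooled shares include the 10364 and 38937 reads of Mir293, whose 12-nt loop cannot hold a whole sequence of 15 nt. Of these 36, 20 had a loop of at least 15 nt, and 15 of those 20 had no loop read.

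Among the hairpins with at least 50 reads, 2 others had a large loop share. Mir130b had 9 loop reads of 16 with SB431542 (56.3%, 29.9 to 80.2) and 20 of 47 with DMSO (42.6%, 28.3 to 57.8). Mir340 had 14 of 47 with SB431542 (29.8%, 17.3 to 44.9) and 17 of 97 with DMSO (17.5%, 10.6 to 26.6). In both libraries the intervals of Mir130b and of Mir340 overlapped that of Mir182. The next highest share, over both libraries, was 2.82% in Mir434. With no read minimum, 8 of 211 hairpins had a larger loop share than Mir182 over both libraries, 6 of them with under 10 reads. The other 2 were Mir130b and Mir195a, whose 22 reads all lay in the loop, 6 with SB431542 and 16 with DMSO.

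The leading loop fragments of these hairpins are printed for comparison with that of Mir182. That of Mir130b (chromosome 16, 17124061 to 17124142, minus strand) spans its whole 16-nt loop, and that of Mir340 (chromosome 11, 50069702 to 50069799, plus strand) the first 17 nt of a 20-nt loop. The fragment of Mir130b had 9 reads with SB431542 and 20 with DMSO, and that of Mir340 had 7 and 6.
Mir130b loop, 16 nt: gtgggcctctgggaag
Mir340 loop, 17 nt: gtcatatgtcgtttgtg

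The 3 loops share the position of their fragments. The base after the mature 5p miRNA was the start of 98.6% of 73 loop reads in Mir182, 100.0% of 29 in Mir130b and 87.1% of 31 in Mir340, over both libraries. In Mir195a 86.4% of its 22 loop reads began 1 base later.

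**Figure D4:**
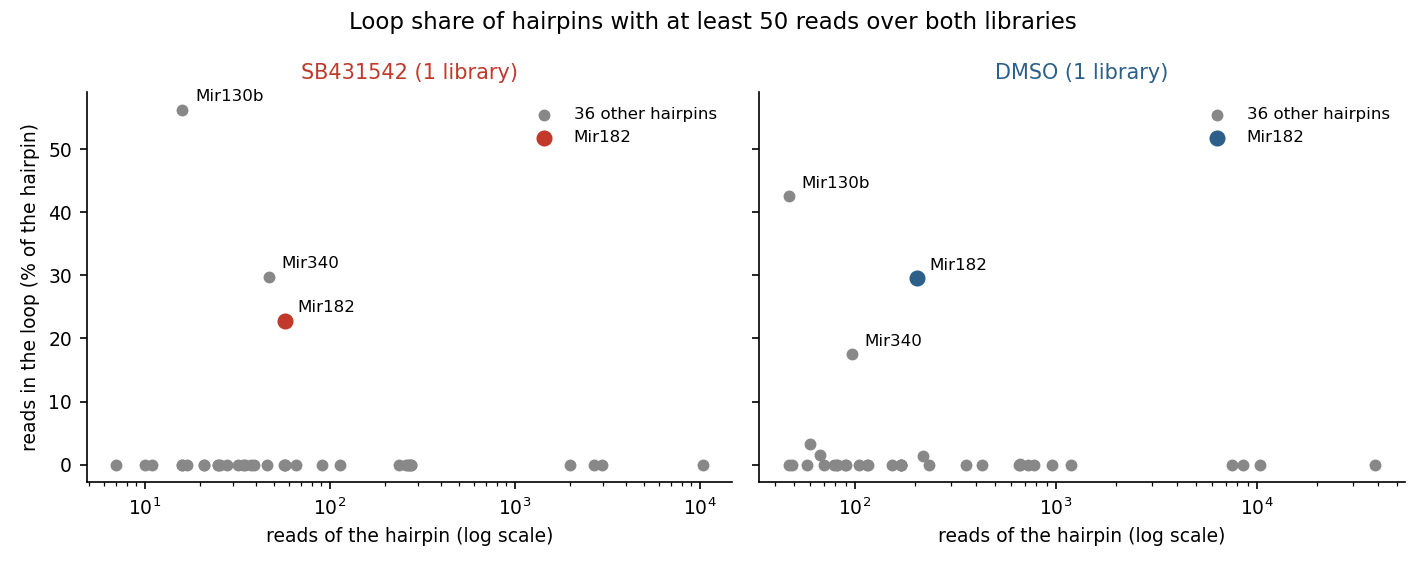
Each point is a hairpin with at least 50 reads over both libraries, with its reads in that library on a log x axis and the share of them in the loop (%) on the y axis, for SB431542 on the left and DMSO on the right. Mir182, Mir130b and Mir340 lie above the other hairpins, most of which have no loop read.

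In its ratio the cluster lay among many hairpins. Of 44 hairpins outside it with at least 50 reads, the 5 whose log2 ratio in RPM was closest to 0.13 were Mir290a (0.12), Mir382 (0.15), Mir323 (0.17), Mir292 (0.19) and Mir543 (0.22). This likeness rests on 2 libraries and is a description only.

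Seed relatives, and hairpins of an epithelial and of a sensory and neural list, had few reads. The seed relatives outside the cluster, Mir1271 (annotated as Gm24195) with the seed of miR-96-5p and Mir3475 with that of miR-96-3p, had 1 read with SB431542 and 0 with DMSO together. The 7 hairpins of an epithelial list, among them the miR-200 family, had 2 reads with SB431542 and 6 with DMSO, all from 3 of them. The 8 of a sensory and neural list, the tissues in which the cluster is best known, had 6 reads with SB431542 and 32 with DMSO (log2 -0.49, -2.13 to 0.70).

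Of 17 hairpins linked to TGF-beta in other cells, 16 had reads and 4 had at least 50. The 4 were Mir27a, Mir181c, Mir181d and Mir143, and Mir143 is also in the list of fibroblasts and feeder cells. Of these 4, 0 were at least 2-fold higher in RPM and 1 at least 2-fold lower, Mir181d, which had 7 reads with SB431542 and 79 with DMSO and was named after its values were seen. Over 45 hairpins with at least 50 reads, 4.44% were at least 2-fold higher in RPM and 4.44% at least 2-fold lower. The median log2 ratio of the 4 was -0.88, against 0.02 over the 45. Scaled to the reads of 15 to 17 nt, 3 of the 4 were at least 2-fold lower and 0 higher, against 37.8% and 0% of the 45, with medians of -1.78 and -0.88. The summed list differed from its median in sign, at 338 reads with SB431542 and 1095 with DMSO (log2 0.14, -0.04 to 0.31). Its largest contributor was Mir27a, with 275 reads with SB431542 and 664.5 with DMSO. These values include sequences that Mir27b also holds, which were divided equally between both hairpins. Mir181c came next with 35 reads with SB431542 and 235 with DMSO.

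Markers of other cell types were low in both libraries. Of 7 hairpins of fibroblasts and feeder cells, 5 had reads, 912 RPM in all with SB431542 and 1024 RPM with DMSO, while Mir214 and Mir145a had 0. Of 5 annotated hairpins of blood cells, 2 had reads, 91.2 RPM in all with SB431542 and 89.6 RPM with DMSO, while Mir142, Mir451a and Mir223 had 0. Their part in the results was not tested.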

How the data were processed

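The authors deposited, for each library, a list of distinct sequences of 3 to 17 nt with a whole-number read count, used here as raw counts. Per the labels' protocols, RNA was extracted with TRIzol and libraries were made with an Illumina TruSeq RNA kit. The submitters' processing notes name genome build mm9, of which no coordinate was used. Size selection, trimming and alignment: not given in the sources used here.

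Sequences of 15 to 17 nt were matched exactly to GENCODE M21 transcripts (GRCm38). Each was assigned to the part of a hairpin (5p, loop, 3p or flank, from RefSeq mature miRNAs of GRCm38.p6) that held most of its bases. In the miRNA total, a sequence in several hairpins was divided equally. Hairpins that share sequences are each counted in the numbers of hairpins, arms and loops. Sequences also found in another small RNA class, a tRNA gene or over 5 further genes did not enter that total. Other matches in the genome were not analysed here. Levels are reads per 1000000 miRNA reads, or per 1000000 reads of 15 to 17 nt. Log2 ratios added 0.5 read to each count.

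Counts have 95% exact Poisson intervals, shares Clopper-Pearson and ratios conditional binomial ones. Reads without molecular identifiers are not independent molecules, so intervals and the floor of 3 reads for a count of 0 cover counting error only. The matching was run on fragments cut from the hairpins, which match by construction. The ratio intervals were run on simulated Poisson counts, which hold no duplicate reads. Hairpins named are the 3 members, the 5 of closest ratio and the 2 most abundant of a list. The members and lists were chosen with earlier results of these data known, and hairpins named for loops or start sites after their values were seen. Alternatives covered the scale, length minimum, pseudocount, read minimum, other matches and distinct sequences. For distinct sequences the DMSO library was thinned to fewer reads. A split of hairpins at the middle and the lengths of 12 to 14 nt were added after seeing the data. Software was Python 3.11.15 (pandas 2.3.3, scipy 1.17.1, numpy 2.4.6, matplotlib 3.10.9) and, for scaling factors, DESeq2 1.42.0 and edgeR 4.0.16 in R 4.3.3.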

Additional observations from a re-analysis of the deposited data

How the results depend on the processing

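No paired analysis was possible because each group has 1 library. Leaving out a replicate was not possible for the same reason. Of 123 alternative values, 96 stayed within the counting interval (for counts of hairpins or regions, within 1.5 times). Among the 96, leaving out sequences with other matches could not move any value, because none of the 13 cluster sequences had such a match. A higher length minimum, or leaving out the most abundant sequence, could not move the share of miR-182-5p reads at the mature 5′ end. Every miR-182-5p read of 15 to 17 nt already began there. Per 1000000 reads of 15 to 17 nt the log2 ratio was -0.77 for the cluster, -0.89 for Mir182 and -0.73 for miR-182-5p, and per 1000000 of all reads -0.83, -0.94 and -0.79. Within the intervals, the sign of the cluster's ratio also turned, to -0.14 with TMM, -0.12 with DESeq2 size factors and -0.06 without the 5 most abundant arms. The same scalings gave -0.26, -0.24 and -0.18 for Mir182 and -0.10, -0.08 and -0.02 for miR-182-5p. With a minimum of 14 nt, Mir182 stood at -0.07 and miR-182-5p at -0.05. Mir182 stood at -0.26 over distinct sequences and miR-182-5p at -0.35 at 17 nt alone. The log2 ratio of Mir183 (1.83) was 0.94 per 1000000 reads of 15 to 17 nt and 0.88 per 1000000 of all reads. It was 0.62 with a minimum of 14 nt and 0.86 over distinct sequences with DMSO thinned. The loop ratio was 0.63 at 17 nt alone, and -0.38 with hairpins split at the middle. The 5p share of Mir182 was 12.5% with SB431542 and 25% with DMSO at 17 nt alone, and 77.4% with DMSO from 16 nt. Over distinct sequences, with DMSO thinned, it was 60.0% with SB431542 and 39.3% with DMSO. The loop share was 87.5% with SB431542 and 66.7% with DMSO at 17 nt alone, and 20.97% with DMSO from 16 nt. Over distinct sequences, with DMSO thinned, it was 40% with SB431542 and 46.5% with DMSO. Among cluster reads from 14 nt, 27.9% with DMSO were of 15 nt and 35.5% of 16 nt. From 16 nt, 80.9% with SB431542 and 80.3% with DMSO were of 16 nt, and 19.7% with DMSO of 17 nt. These length shares change because the length minimum changes which reads are counted. A larger loop share than that of Mir182 was found in 8 of 211 hairpins with no read minimum and in 0 of 20 with at least 200 reads, against 1 with at least 50. With no read minimum 120 of 405 regions were at least 2-fold higher and 30 lower, and with at least 200 reads 1 of 26 was lower. The cause of the other shifts was not tested. Depth limits Mir183 and Mir96, with 4 reads or fewer per library.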

Other observations

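Below the length minimum the cluster had shorter fragments, which were looked at after seeing the data. The 5p arm of Mir182 had 10 reads with SB431542 and 61 with DMSO at 14 nt, 4 and 15 at 13 nt, and 0 and 4 at 12 nt, all from the mature 5′ end. The sequence of 14 nt matched no other annotated gene, that of 13 nt matched 1 and that of 12 nt matched 8. The Mir182 loop had 6 reads with SB431542 and 13 with DMSO at 14 nt, 3 and 13 at 13 nt, and 2 and 15 at 12 nt. Of these loop reads, 1 with DMSO began at position 31 and the others at position 32. The loop sequences of 13 and 14 nt matched no other annotated gene, while that of 12 nt from position 32 matched 2 others and that from position 31 matched 4. Over 12 to 14 nt, Mir182 had 205 reads per 1000000 reads of those lengths with SB431542 and 651 with DMSO, those with other matches included. The level of all miRNA hairpins at 12 to 14 nt was not computed, so these values have no background. Mir183 had 1 read of 12 to 14 nt with SB431542 and 11 with DMSO, of sequences that each also matched at least 1 other gene. Of these, 0 with SB431542 and 6 with DMSO began at position 6, the mature 5′ end, and the others 1 base further in. Mir96 had 1 read of 14 nt with SB431542, from the mature 5′ end, and 1 of 12 nt with DMSO, from position 45 in the loop, whose sequence matched 22 other genes. No read of these lengths was antisense to the cluster.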
